A study of Mus musculus with 12 samples.

Results

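The 6 RNA libraries of cultured Myc-CaP cells are described here, which were all libraries labelled as that line in culture and are 6 of the 12 in the series; the other 6 are tumors and were not used. Myc-CaP is a mouse line grown out of a prostate carcinoma of an animal carrying a human MYC transgene, so both groups share that transgene. In the YJ1206 group, 3 samples had been exposed to YJ1206, a degrader of CDK12 and CDK13, for 24 hours, at 1 μM according to the methods of the study. The control group held 3 samples given DMSO, the solvent, and its labels state no time. No label says whether the 3 samples of a group were separate cultures, so p-values measure the spread between these samples, which may be technical, and the line is a single model. A gene was tested when edgeR's filter on low counts kept it, which left 11826 of the 40077 genes in the table.

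CDK12 and CDK13 each pair with cyclin K and phosphorylate the C-terminal domain of RNA polymerase II while it transcribes a gene. Cells lacking CDK12 activity are known to lose full-length transcripts of long genes and of DNA repair genes, partly through use of early polyadenylation sites. A degrader removes protein, so the transcripts of its targets need not fall. Because the cells give bulk RNA, a fall in a transcript cannot be told apart from fewer cells that express it.

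The 6 libraries held 13936902 to 18519926 counts on genes, with the 3 YJ1206 libraries all below the 3 DMSO libraries. At this depth 3 counts corresponded to 0.151 to 0.231 CPM (counts scaled to library size with edgeR's TMM factors, which is the level used for each gene unless TPM is named), a limit that covers counting error only. The groups carry library numbers from separate series, so that numbering and treatment cannot be told apart. The labels name polyA RNA, whereas the protocol describes removal of ribosomal RNA. Of the genes tested, 76.1% had an adjusted p under 0.05 (edgeR quasi-likelihood test, Benjamini-Hochberg), 37.8% higher and 38.3% lower with YJ1206, and in 77.5% the groups did not overlap. Higher by at least 2-fold were 7.89%, and lower by at least 2-fold were 10.5%. With TMM 49.7% of the called genes were higher, but with libraries scaled by total counts alone 36.1% were, and with log2(TPM + 1) 29.2%. Over all genes the median log2 fold change moved from -0.017 with TMM to -0.20 and -0.24. With total counts alone 3314 genes were called higher and 5876 lower, and with log2(TPM + 1) 2534 and 6151, beside 4467 and 4528 with TMM. Counts of a gene list below are to be read beside these. Statements below that the groups of a named gene did not overlap are to be read beside the 77.5% of all tested genes for which that held. The median of a list includes the shift of all genes unless stated otherwise, so a small median can turn direction through that shift alone. The direction of a list's median is given with a setting that turned it, where any did.

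Markers of the labelled cell type were mixed. Foxa1, a transcription factor of luminal epithelium, stood at 266 ± 2.17 CPM with DMSO and 311 ± 4.79 with YJ1206 (a difference whose direction turned with log2(TPM + 1)), and Krt15, a basal keratin, at 882 ± 13.7 CPM with DMSO and 765 ± 40.6 with YJ1206, so both epithelial genes were abundant. In contrast, Epcam, a luminal adhesion protein, and the basal keratin Krt5 were at 0 counts in all 6 libraries, and Cdh1 (E-cadherin) and Krt18 were at no more than 0.425 CPM on average in either group. Of the 20 leukocyte markers, 0 passed the filter, and their summed level was 0.98 to 1.5 TPM (scaled for transcript length within a library) with DMSO and 1.45 to 2.75 TPM with YJ1206, with Ptprc, the pan-leukocyte marker, at 0. Of the 8 endothelial markers, 0 passed the filter as well, with sums of 0.084 to 0.38 and 0.036 to 0.15 TPM. The 11 fibroblast markers summed to 3.72 to 5.68 TPM with DMSO and 4.73 to 8.96 TPM with YJ1206, with Dcn at 0, and the 6 skeletal muscle markers to 7.75 to 12.1 and 8.12 to 10.9 TPM. For the labelled type, the 12 luminal markers summed to 850 to 861 TPM with DMSO and 859 to 885 TPM with YJ1206. The 7 basal markers summed to 1069 to 1109 TPM with DMSO and 730 to 780 TPM with YJ1206. With TMM 6 of 7 tested luminal markers rose and 1 fell, and 2 of 4 tested basal markers rose and 2 fell. Of all genes 37.8% rose and 38.3% fell.

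Among genes with a mean of at least 5 CPM, the largest increase in YJ1206-treated cells was that of Id3, which encodes an inhibitor of basic helix-loop-helix transcription factors and is known as a target of BMP signaling. The 3 DMSO libraries held 3.95, 4.03 and 4.99 CPM and the 3 YJ1206 libraries 110.1, 116 and 127 CPM, a log2 fold change of 4.76 (SE 0.08, adjusted p = 1.92e-26, edgeR). Its relative Id1 moved the same way, at 10.2, 10.3 and 13.1 CPM in the DMSO libraries and 77.2, 76.4 and 85.3 CPM in the YJ1206 libraries, a log2 fold change of 2.83 (SE 0.076). The 3 YJ1206 libraries lay far above the 3 DMSO libraries for both genes. Also among the 15 largest increases, Ddit4, an inhibitor of mTORC1, was at 4.87, 4.34 and 5.04 CPM in the DMSO libraries and 78.5, 72.4 and 77.1 CPM in the YJ1206 libraries, Gadd45b, a growth arrest and DNA damage gene, at 18.3, 17.6 and 17.5 CPM in the DMSO libraries and 234, 249 and 265 CPM in the YJ1206 libraries, and Mt2, a metallothionein that binds metals, at 25.1, 25.2 and 21.8 CPM in the DMSO libraries and 304, 317 and 329 CPM in the YJ1206 libraries. Their log2 fold changes were 4.0, 3.81 and 3.72, with SEs from 0.048 to 0.078. Fos, a subunit of the AP-1 transcription factor, was low with DMSO, at 0.975, 0.516 and 0.806 CPM in the DMSO libraries and 12.5, 10.3 and 14.2 CPM in the YJ1206 libraries (log2 fold change 4.0, SE 0.21). Krt8, a luminal keratin, was at 3.08, 3.15 and 2.77 CPM in the DMSO libraries and 32.1, 31.8 and 33.4 CPM in the YJ1206 libraries (log2 fold change 3.43, SE 0.10), and Tmsb10, which binds monomeric actin, at 124, 119 and 126 CPM in the DMSO libraries and 817, 864 and 907 CPM in the YJ1206 libraries (log2 fold change 2.81, SE 0.034). Gm43972 had the widest spread of the 15, at 3.9, 2.12 and 4.48 CPM in the DMSO libraries and 15.5, 28.4 and 87 CPM in the YJ1206 libraries, with YJ1206 replicate 3 far above the other two. Gm10718 (0.92 ± 0.136 CPM with DMSO and 15.7 ± 2.72 with YJ1206) belongs to a set of near-identical predicted genes, so its level is uncertain.

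The 15 largest decreases, among genes above the same mean, ran from -3.56 to -2.59 in log2 fold change. Angptl2, a secreted angiopoietin-like protein, was at 33, 39.1 and 38.7 CPM in the DMSO libraries and 3.65, 2.79 and 3.0 CPM in the YJ1206 libraries, with an adjusted p of 3.02e-20 (edgeR). Nr1h5, a nuclear receptor gene, was at 103, 105 and 112 CPM in the DMSO libraries and 13.1, 14.8 and 11.6 CPM in the YJ1206 libraries (log2 fold change -3.02, SE 0.066), and Rin1, a RAS effector, at 144, 150.4 and 145 CPM in the DMSO libraries and 24.6, 25.7 and 21.8 CPM in the YJ1206 libraries (log2 fold change -2.6, SE 0.051). Both were well expressed with DMSO and low in every YJ1206 library. Cyp1b1, a cytochrome P450 that metabolizes steroids and xenobiotics, was at 121, 112 and 117 CPM in the DMSO libraries and 16.5, 21.2 and 20.5 CPM in the YJ1206 libraries, and Cdkn3, a phosphatase that acts on cell cycle kinases, at 17.5, 18.3 and 16.4 CPM in the DMSO libraries and 2.29, 2.26 and 2.23 CPM in the YJ1206 libraries; their log2 fold changes were -2.59 and -2.94. Among noncoding genes, Lncenc1 was at 27.6, 25.4 and 25.6 CPM in the DMSO libraries and 2.43, 2.42 and 1.77 CPM in the YJ1206 libraries (log2 fold change -3.56, SE 0.13). None of the 30 genes had overlapping groups, which the rule that chose them required.

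**Figure D1:**
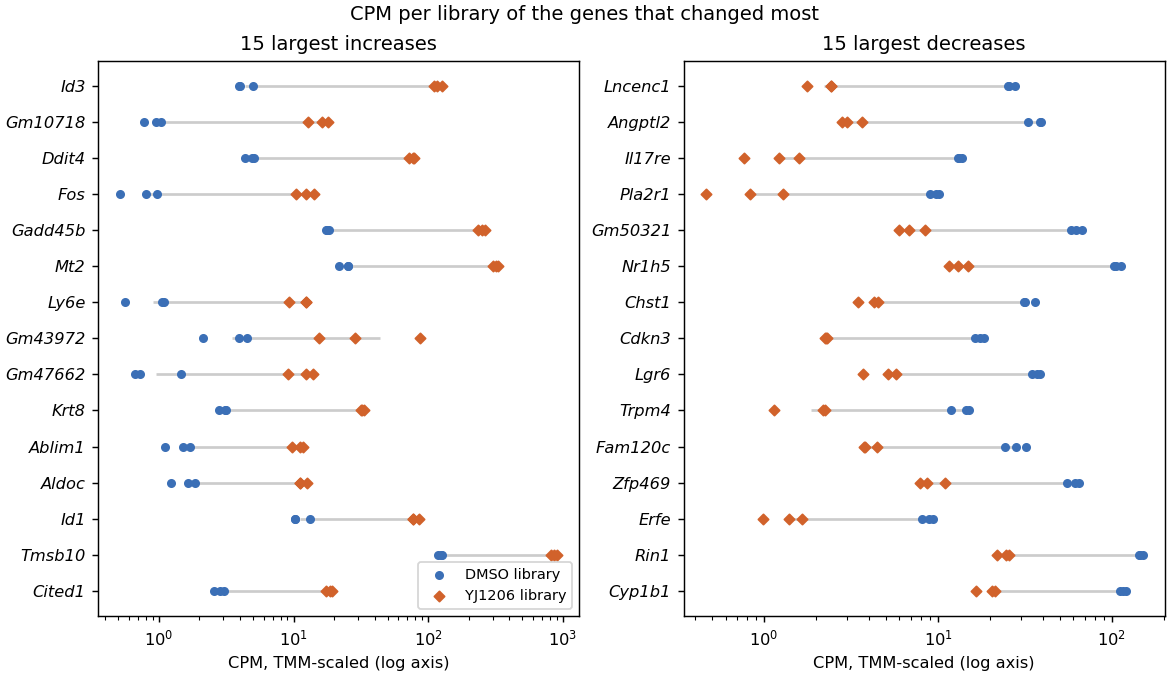
CPM of each library on a log axis for the 15 genes with the largest increase (left) and the 15 with the largest decrease (right) among those with a mean of at least 5 CPM; circles are DMSO libraries, diamonds are YJ1206 libraries and grey lines join the group means. Id3 lies at 3.95 to 4.99 CPM with DMSO and 110.1 to 127 CPM with YJ1206, and Gm43972 shows the widest spread among YJ1206 libraries.

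Transcripts of the kinases that the degrader targets did not fall with TMM scaling. Cdk12 was at 119, 121 and 125 CPM in the DMSO libraries and 185, 182 and 179.7 CPM in the YJ1206 libraries and Cdk9, the kinase of the positive elongation factor P-TEFb, at 57.6, 62.7 and 56.3 CPM in the DMSO libraries and 87.3, 88.5 and 92.2 CPM in the YJ1206 libraries (log2 fold changes 0.58 and 0.6, SEs 0.035 and 0.047), so the groups did not overlap for either. Mnat1, an assembly factor of the CDK7 complex, rose most of the 22 transcriptional CDKs, cyclins and partners tested (40.1 ± 1.39 CPM with DMSO and 69.4 ± 4.33 with YJ1206, log2 fold change 0.79), and Cdk10 fell most (15.1 ± 0.686 CPM with DMSO and 9.04 ± 0.954 with YJ1206, -0.75). In that list 6 members rose, 8 fell and 8 did not pass the test, with a median log2 fold change of -0.15. Cdk13 was at 91 ± 2.86 CPM with DMSO and 92.7 ± 0.919 with YJ1206 and did not pass the test (adjusted p = 0.55, edgeR).

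Genes that control elongation by RNA polymerase II were more often higher than lower. Of 38 tested elongation factors, P-TEFb regulators and BET proteins, 29 rose (76.3%) and 6 fell (15.8%), with a median log2 fold change of 0.53, beside 37.8% and 38.3% of all genes; with total counts alone 27 rose and 9 fell, and with log2(TPM + 1) 22 and 7. Hexim1, whose protein holds P-TEFb inactive in the 7SK particle, was at 56, 56.6 and 57.1 CPM in the DMSO libraries and 307, 312 and 329.9 CPM in the YJ1206 libraries, a log2 fold change of 2.48 (SE 0.038, adjusted p = 2.30e-27, edgeR). Its paralog Hexim2 was at 2.72, 3.2 and 3.83 CPM in the DMSO libraries and 14.7, 15.6 and 14.8 CPM in the YJ1206 libraries (log2 fold change 2.2, SE 0.13), and the groups were far apart for both. Larp7, which also belongs to the 7SK particle, rose from 93.5 ± 3.69 to 124 ± 5.07 CPM (log2 fold change 0.4). The BET proteins bind acetylated histones and recruit P-TEFb. Brd2 was at 267, 278 and 279 CPM in the DMSO libraries and 976, 984 and 1059 CPM in the YJ1206 libraries (log2 fold change 1.87, SE 0.03), and its libraries did not overlap between groups. Of the PAF1 complex, which travels with the elongating polymerase, Paf1 rose from 70.4 ± 3.15 to 107 ± 4.78 CPM and Rtf1 from 91.6 ± 2.2 to 119 ± 5.42 CPM. With log2(TPM + 1) the calls of Larp7 and Rtf1 did not pass the threshold. Nelfe, a subunit of the pausing factor NELF, went the other way, at 28.7, 29.6 and 32.2 CPM in the DMSO libraries and 9.09, 8.75 and 10.6 CPM in the YJ1206 libraries (log2 fold change -1.67, SE 0.091). Iws1 and Ell2, both elongation factors, fell from 84.3 ± 2.92 to 49.2 ± 4.0 CPM and from 31 ± 1.14 to 18.4 ± 2.01 CPM.

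Of the 13 RNA polymerase II subunits tested, 9 rose and 1 fell, with a median log2 fold change of 0.29 that became -0.04 with log2(TPM + 1), where 4 rose and 6 fell. Polr2a, the catalytic subunit that carries the C-terminal domain, was at 346, 369 and 351 CPM in the DMSO libraries and 670.4, 666 and 660.1 CPM in the YJ1206 libraries (log2 fold change 0.91, SE 0.027), and Polr2d at 26, 28 and 26.4 CPM in the DMSO libraries and 68.1, 73 and 73.3 CPM in the YJ1206 libraries (log2 fold change 1.42, SE 0.056). No library of one group overlapped the other for these 2 subunits. Factors of cleavage, polyadenylation and termination moved more often down: 9 rose (34.6%) and 14 fell (53.8%) of 26 tested, with a median of -0.27. Of all genes 37.8% rose and 38.3% fell. Ssu72, a phosphatase of the C-terminal domain, was at 43.3, 46.9 and 44.2 CPM in the DMSO libraries and 16.1, 13.5 and 14.7 CPM in the YJ1206 libraries (log2 fold change -1.6, SE 0.074), whereas Nudt21, the cleavage factor subunit known to favor distal polyadenylation sites, was at 131, 125 and 125 CPM in the DMSO libraries and 216, 213 and 213 CPM in the YJ1206 libraries (log2 fold change 0.75, SE 0.035). Cstf2 fell from 164 ± 6.72 to 98.5 ± 2.36 CPM, Clp1 rose from 21.5 ± 2.09 to 38.1 ± 1.49 CPM and Scaf8, which binds the C-terminal domain, rose from 72.8 ± 1.71 to 132 ± 4.76 CPM.

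The Integrator complex cleaves nascent RNA near promoters and at small nuclear RNA genes. Of its 14 subunits, 8 rose and 5 fell, with Ints13 highest in fold (52.7 ± 0.856 CPM with DMSO and 133 ± 3.22 with YJ1206, log2 fold change 1.33) and Ints6 lowest (53.5 ± 2.38 CPM with DMSO and 22.6 ± 0.55 with YJ1206, -1.24); with log2(TPM + 1) 5 rose and 5 fell and the median turned from 0.27 to -0.08. Among 47 SR and hnRNP splicing factors 24 rose and 16 fell with a median of 0.09, which turned to -0.09 with total counts alone, where 16 rose and 27 fell. Of all genes 37.8% rose and 38.3% fell with TMM. Hnrnpr rose from 188 ± 1.05 to 346 ± 2.35 CPM and Tra2a from 159 ± 2.55 to 253 ± 7.07 CPM, and Clk2, a kinase of SR proteins, fell from 32.1 ± 0.883 to 17.6 ± 0.129 CPM.

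Homologous recombination and Fanconi anemia genes, whose products repair double-strand breaks and crosslinks, had the lowest median of the 40 lists with at least 10 tested members. Of 51 tested, 32 fell (62.7%) and 10 rose (19.6%), beside 38.3% and 37.8% of all genes, and the median log2 fold change was -0.43. Brca2, which prepares single-stranded DNA for strand exchange, was at 72.1, 70.1 and 74.9 CPM in the DMSO libraries and 19.3, 19.8 and 20.7 CPM in the YJ1206 libraries, a log2 fold change of -1.86 (SE 0.059, adjusted p = 1.79e-20, edgeR). Fancd2 and Fanci, the 2 partners of the complex that marks a crosslink, were at 51.8, 58.9 and 54.1 CPM in the DMSO libraries and 18.9, 17 and 14 CPM in the YJ1206 libraries and at 34.2, 33.2 and 33.8 CPM in the DMSO libraries and 10.7, 11.2 and 9.84 CPM in the YJ1206 libraries (log2 fold changes -1.72 and -1.67). Fanca, of the Fanconi core complex, was at 97.7, 99 and 101 CPM in the DMSO libraries and 27.3, 30.3 and 33.1 CPM in the YJ1206 libraries (log2 fold change -1.72, SE 0.055). All 4 genes were lower in each YJ1206 library than in any DMSO library, beside 77.5% of all genes tested whose groups did not overlap. The signaling kinases Atr and Atm fell from 77.1 ± 5.47 to 29.7 ± 2.26 CPM and from 139 ± 7.3 to 82.3 ± 1.65 CPM. Brca1 moved less (85.6 ± 2.52 to 66.2 ± 5.35 CPM, log2 fold change -0.37). Against the list's median, Rad52, an annealing protein, rose from 7.42 ± 0.85 to 14.7 ± 0.524 CPM (log2 fold change 0.99), and Sfr1, a recombination cofactor, from 138 ± 2.9 to 192 ± 8.32 CPM (0.47). Scaling by total counts alone gave 4 higher and 36 lower, in a setting that moved all genes down. Taken relative to all genes, the list's median was -0.41 with both scalings.

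**Figure D2:**
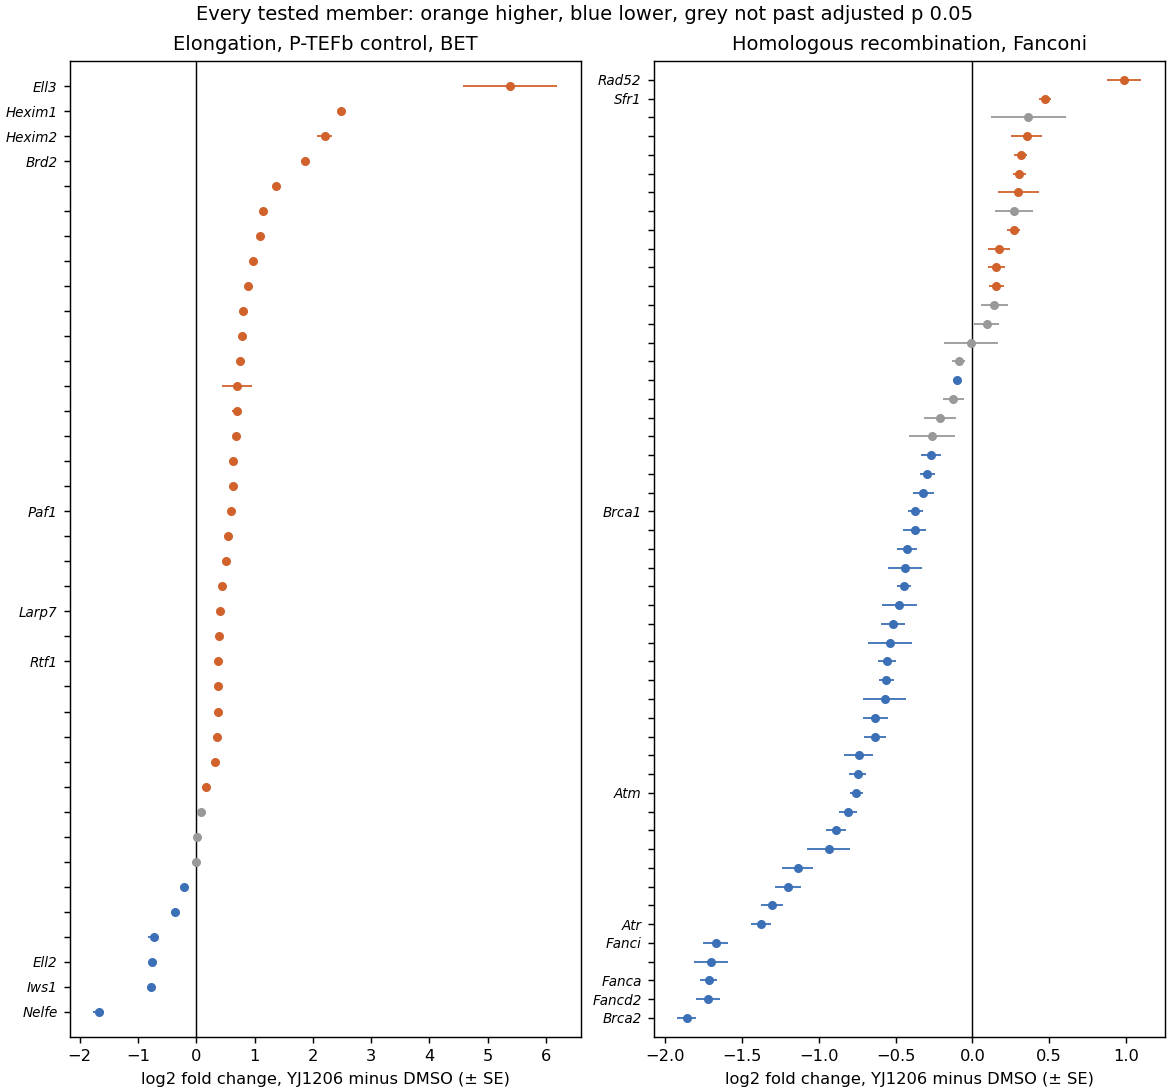
Log2 fold change of YJ1206 minus DMSO, with its standard error, for each tested member of the list of elongation and P-TEFb genes (left, 38 genes) and of the list of homologous recombination and Fanconi genes (right, 51 genes); orange points rose, blue points fell and grey points did not pass an adjusted p of 0.05 (edgeR), and the genes the text describes are labelled. On the left 29 points are orange and 6 blue, on the right 10 are orange and 32 blue; the point farthest right, Ell3, rests on 0, 1 and 0 counts with DMSO against 13, 9 and 19 with YJ1206.

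Genes of end joining, mismatch repair and excision repair also fell more often than they rose, 27 (56.25%) against 14 (29.2%) of 48, with a median of -0.19. Of all genes 38.3% fell and 37.8% rose. Prkdc, the catalytic kinase of end joining, was at 53.3, 49.6 and 50.7 CPM in the DMSO libraries and 18.3, 17.3 and 16.3 CPM in the YJ1206 libraries (log2 fold change -1.56, SE 0.067), and Ogg1, a glycosylase for oxidized guanine, fell from 17.2 ± 0.932 to 6.76 ± 0.282 CPM (-1.35). Nthl1, another base excision glycosylase, rose from 2.44 ± 0.192 to 11.2 ± 0.382 CPM (log2 fold change 2.19), and Ercc3, a helicase of the TFIIH complex, from 54.2 ± 2.08 to 107 ± 2.2 CPM (0.99).

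Replication genes moved in both directions within single complexes. Of 58 tested, 31 fell (53.4%) and 19 rose (32.8%), beside 38.3% and 37.8% of all genes, with a median log2 fold change of -0.15. Pole, the catalytic subunit of the leading-strand polymerase, was at 189.7, 189 and 201 CPM in the DMSO libraries and 70.9, 72.3 and 69.2 CPM in the YJ1206 libraries, and Prim1, the primase, at 109, 104 and 101 CPM in the DMSO libraries and 43.2, 40.6 and 40.8 CPM in the YJ1206 libraries (log2 fold changes -1.45 and -1.33). Rfc5 and Rfc3 are subunits of one clamp loader, and the former fell from 97.1 ± 1.45 to 40.9 ± 1.77 CPM while the latter rose from 49.6 ± 1.34 to 76.3 ± 3.78 CPM. Mcm7, a subunit of the replicative helicase, rose from 349 ± 13.1 to 624 ± 22.3 CPM and Cdt1, which loads that helicase, from 109.7 ± 2.71 to 243 ± 3.92 CPM, whereas Mcm2, of the same helicase, fell from 330.2 ± 7.23 to 276 ± 9.04 CPM. Of 29 G1 cyclins, kinases and pocket proteins, 18 fell (62.1%) and 7 rose (24.1%), with a median of -0.30. Cdk4 was at 445, 448 and 439 CPM in the DMSO libraries and 234, 230.0 and 234 CPM in the YJ1206 libraries (log2 fold change -0.93, SE 0.028), Ccnd1, its cyclin, fell from 751 ± 3.91 to 593 ± 16.7 CPM, and the pocket protein gene Rbl1 from 94.7 ± 3.74 to 35.2 ± 1.06 CPM. The inhibitor genes Cdkn1a, Cdkn1b and Cdkn2d rose, with log2 fold changes of 1.82, 0.79 and 1.14. Mitotic genes gave 28 higher and 29 lower of 67 with TMM and a median of 0.03, but 18 higher and 39 lower and a median of -0.16 with total counts alone, and 14 and 47 with log2(TPM + 1). Within them the mitotic kinases Plk1 (175 ± 4.1 to 284 ± 9.18 CPM) and Aurka (98.6 ± 3.91 to 186 ± 1.83 CPM) rose, and the phosphatase Cdc25b (70.7 ± 3.23 to 27.4 ± 0.692 CPM) fell.

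Among 38 tested targets of p53, 20 rose (52.6%) and 12 fell (31.6%), beside 37.8% and 38.3% of all genes. The median of 0.15 turned to -0.03 with total counts alone, where 16 rose and 16 fell. Taken relative to all genes, it was 0.17 with both scalings. Cdkn1a, the inhibitor that arrests the cycle, was at 7.23, 7.9 and 7.51 CPM in the DMSO libraries and 27.6, 24.8 and 27.5 CPM in the YJ1206 libraries (log2 fold change 1.82, SE 0.093), and Pmaip1 (NOXA), a proapoptotic member of the BCL2 family, at 41.4, 39.1 and 41.3 CPM in the DMSO libraries and 166, 168 and 179 CPM in the YJ1206 libraries (2.07, SE 0.043). Mdm2, the ligase that p53 induces against itself, was at 72.4 ± 2.15 CPM with DMSO and 71.1 ± 3.61 with YJ1206 and did not pass the test (adjusted p = 0.627, edgeR). Rrm2b, a ribonucleotide reductase subunit, fell from 43.6 ± 2.07 to 11.7 ± 1.1 CPM (-1.89), and Ddb2, of excision repair, from 8.65 ± 0.281 to 3.89 ± 0.654 CPM. In the BCL2 family 3 genes that protect cells fell: Mcl1 was at 208, 196 and 198 CPM in the DMSO libraries and 104, 97.9 and 98 CPM in the YJ1206 libraries (log2 fold change -1.0, SE 0.038), Bcl2 fell from 25.4 ± 0.296 to 10.7 ± 1.71 CPM and Bcl2l2 from 27.3 ± 0.489 to 7.42 ± 1.27 CPM. Bax (53 ± 1.81 to 101 ± 3.51 CPM) and Bnip3l (41.1 ± 1.51 to 114 ± 2.44 CPM), which promote death or removal of mitochondria, rose. Of the 21 tested members of that family 7 rose and 9 fell, beside a median of -0.03.

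Immediate early genes, which cells transcribe within minutes of a stimulus without new protein, were higher. Of 40 tested, 30 rose (75%) and 6 fell (15%), beside 37.8% and 38.3% of all genes, with a median of 0.64. With log2(TPM + 1) 21 rose and 8 fell. Egr1, a zinc finger factor, was at 1.59, 1.39 and 1.46 CPM in the DMSO libraries and 8.8, 7.4 and 7.84 CPM in the YJ1206 libraries, and Nr4a2, an orphan nuclear receptor, at 3.18, 2.74 and 2.42 CPM in the DMSO libraries and 15.7, 13.7 and 13.5 CPM in the YJ1206 libraries (log2 fold changes 2.43 and 2.37). Levels of both stayed low in YJ1206-treated cells. Of the AP-1 subunits, Jun rose from 44.9 ± 2.62 to 79.3 ± 0.894 CPM and Junb from 70 ± 1.61 to 117 ± 0.832 CPM, but Fosl1 fell from 145 ± 6.57 to 81.9 ± 1.54 CPM and Fosl2 from 125 ± 1.08 to 80.6 ± 1.86 CPM. Hes1, a repressor downstream of Notch, rose from 2.66 ± 0.435 to 11.4 ± 0.301 CPM. Of 24 tested genes of BMP and SMAD signaling and feedback, Id genes included, 13 rose and 4 fell with TMM and 9 and 8 with log2(TPM + 1), where the median was 0.001 against 0.23. Taken relative to all genes, that median was 0.24 with TMM and 0.25 with log2(TPM + 1). Smad3 was the member that fell most (102 ± 4.97 to 54.7 ± 4.75 CPM).

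Stress responses moved in part, to be read beside 37.8% of all genes higher and 38.3% lower with TMM. Of 43 heat shock proteins and cochaperones 32 rose and 9 fell, with a median of 0.48 (23 and 15 with log2(TPM + 1)). Bag3, a cochaperone of HSP70, was at 44.7, 46.2 and 42 CPM in the DMSO libraries and 180.5, 191 and 189 CPM in the YJ1206 libraries (log2 fold change 2.08, SE 0.043), Cryab, a small heat shock protein, rose from 3.82 ± 0.227 to 13.9 ± 2.1 CPM, and Hspa5, the endoplasmic reticulum chaperone, from 621 ± 6.22 to 1019 ± 19.1 CPM. Hspa1a and Hspa1b are near-identical copies whose reads can be split between them, and rose by 1.0 and 0.97 on the log2 scale. In the integrated stress response 24 rose and 10 fell of 41, although with log2(TPM + 1) the split was 18 and 18 and the median of 0.23 turned to -0.05. Ppp1r15a, which encodes a phosphatase subunit that ends that response, was at 16.9, 17.6 and 18.9 CPM in the DMSO libraries and 73.9, 75 and 74.2 CPM in the YJ1206 libraries, and Asns, asparagine synthetase, at 173, 174 and 169 CPM in the DMSO libraries and 426, 433 and 447 CPM in the YJ1206 libraries (log2 fold changes 2.06 and 1.34). Atf4, the factor that drives the response, rose less (164 ± 3.29 to 243 ± 10.5 CPM), and Slc7a11, the cystine transporter, fell from 106 ± 4.07 to 75.6 ± 3.69 CPM. Targets of NRF2 were 18 higher and 10 lower of 31, with log2(TPM + 1) 12 and 14 and a median turned from 0.28 to -0.06, and Ftl1, ferritin light chain, was at 1466, 1498 and 1465 CPM in the DMSO libraries and 3819.7, 3859 and 4154 CPM in the YJ1206 libraries (log2 fold change 1.42, SE 0.025).

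The study treated these cells to ask whether CDK12/13 loss activates STING signaling. From their RNA it reports enrichment of a STING activity signature. After shorter treatments it reports more phosphorylated STING, TBK1 and IRF3 protein, and higher Ifnb1, Cxcl10, Ccl5 and Cd274 by RT-qPCR. Isg20 and Irf7 were also among the genes it measured by RT-qPCR. Isg20, Irf7 and Cxcl10 are given in this paragraph and Cd274 under the other observations. Ifnb1 and Ccl5 are not reported here. The genes of that pathway are given here by their step, as RNA at 24 hours, which does not measure phosphorylation. Of 27 tested sensors, adaptors and nucleases of the cytosolic nucleic acid response 6 rose (22.2%) and 12 fell (44.4%), with a median of -0.12. Of all genes 37.8% rose and 38.3% fell. Trex1, the exonuclease that degrades cytosolic DNA, was at 4.41, 3.51 and 4.89 CPM in the DMSO libraries and 24.9, 25.7 and 30.8 CPM in the YJ1206 libraries (log2 fold change 2.66, SE 0.12), and Cgas, which senses such DNA, rose from 23.5 ± 0.511 to 32.4 ± 1.44 CPM. Mavs, the adaptor of RNA sensing, fell from 44.3 ± 1.26 to 19.2 ± 2.3 CPM, and Irf3, the factor activated downstream, from 27.7 ± 1.87 to 21.5 ± 1.14 CPM. Sting1 was at 1.14 ± 0.244 CPM with DMSO and 1.25 ± 0.256 with YJ1206 and Tbk1 at 62.5 ± 1.21 CPM with DMSO and 59.9 ± 0.78 with YJ1206, and neither passed the test (adjusted p = 0.746 and 0.23, edgeR). In the layer of receptors and JAK-STAT genes 14 rose and 7 fell of 27 with TMM, 12 and 10 with total counts alone and 9 and 10 with log2(TPM + 1). Jak1, a receptor-bound kinase, was at 144, 137 and 145 CPM in the DMSO libraries and 304, 305 and 309 CPM in the YJ1206 libraries, Ifnar2, an interferon receptor chain, rose from 12.3 ± 1.23 to 23.4 ± 0.809 CPM, and Ptpn2, a phosphatase that restrains JAK-STAT signaling, from 36.4 ± 3.29 to 97.2 ± 2.37 CPM, while Tyk2 fell from 19.4 ± 1.29 to 6.22 ± 0.407 CPM and Jak2 from 136 ± 5.82 to 63.8 ± 1.93 CPM. Antiviral interferon-stimulated genes were mostly too low to test, with 20 of 54 passing the filter and 19 at no more than 3 counts in all 6 libraries. Among the 20, 13 rose and 4 fell, a count that favors genes high in 1 group and so describes these members and not the list. Isg15, a ubiquitin-like modifier, was at 1.28, 1.5 and 0.806 CPM in the DMSO libraries and 6.3, 4.83 and 5.15 CPM in the YJ1206 libraries (log2 fold change 2.18, SE 0.24), and Bst2, which tethers viruses to the cell surface, at 15.8, 17 and 17.4 CPM in the DMSO libraries and 23, 21.4 and 22.1 CPM in the YJ1206 libraries (0.41, SE 0.082). Ifit2, an antiviral protein that binds RNA, fell from 35.9 ± 1.33 to 22 ± 0.923 CPM, and Isg20, an antiviral exonuclease, from 42.3 ± 2.05 to 27.9 ± 2.42 CPM. With log2(TPM + 1) the calls of Cgas and Bst2 did not pass the threshold (log2 fold changes 0.13 and 0.072). The estimate for Sting1 turned to lower with YJ1206 on both TPM scales, with values given further below. Irf7, Cxcl10 and Psmb8 had no more than 3 counts in any DMSO library, and their levels with YJ1206 were at least 7.43-, 8.84- and 7.33-fold higher than the mean level that 3 counts allow per DMSO library. For MHC class I, B2m, its light chain, was at 82.7, 75.9 and 77.9 CPM in the DMSO libraries and 191, 189 and 211 CPM in the YJ1206 libraries (log2 fold change 1.32, SE 0.044), Tap2, of the peptide transporter, rose from 5.06 ± 0.495 to 11.8 ± 2.46 CPM, and Erap1, which trims peptides, fell from 32.7 ± 1.66 to 19.9 ± 2.46 CPM.

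The promoters of 4 of the genes that rose are printed to show which known response elements lie next to them, 150 bases ending just before the annotated start, from RefSeq on GRCm38.p6, 5′ to 3′ on the gene's strand. Capitals mark the motif searched on both strands. For Isg15 and Bst2 it was the interferon-stimulated response element, 2 copies of GAAA with any 2 bases between them. Their stretches are chr4:156200819-156200968 and chr8:71537473-71537622, both on the minus strand. For Ppp1r15a, chr7:45526269-45526418 on the minus strand, it was TGACGTCA (cAMP response element, bound by ATF and CREB factors). For Mt2, chr8:94172468-94172617 on the plus strand, it was TGCNCNC, a loose form of the metal response element with any base at each N.
Isg15: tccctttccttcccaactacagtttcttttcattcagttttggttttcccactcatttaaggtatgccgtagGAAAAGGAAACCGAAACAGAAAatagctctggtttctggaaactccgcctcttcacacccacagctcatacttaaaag
Bst2: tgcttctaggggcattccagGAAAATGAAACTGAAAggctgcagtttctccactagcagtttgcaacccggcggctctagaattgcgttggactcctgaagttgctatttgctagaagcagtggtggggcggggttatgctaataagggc
Ppp1r15a: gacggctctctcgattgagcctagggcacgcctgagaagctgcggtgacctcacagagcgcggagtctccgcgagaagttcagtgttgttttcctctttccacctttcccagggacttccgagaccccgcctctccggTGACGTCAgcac
Mt2: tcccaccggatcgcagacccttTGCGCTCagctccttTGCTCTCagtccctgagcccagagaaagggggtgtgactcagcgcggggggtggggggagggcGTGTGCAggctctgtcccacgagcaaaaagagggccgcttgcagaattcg
Matches that overlap were counted one by one, giving 3 in Isg15, 2 in Bst2, 1 in Ppp1r15a and 3 in Mt2. In the 250 bases before the start, 2.98% of all 32851 promoters held the interferon element, 1.55% the cAMP element and 44.4% the short, loose metal pattern. For promoters of the tested genes these shares were 2.41%, 2.70% and 52.2%, for those of genes at least 2-fold higher 2.71%, 2.59% and 54.1%, and for those of genes at least 2-fold lower 1.94%, 1.77% and 50.2%. Symbols matched a promoter for 9092 of the 11826 tested genes.

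Genes of the NF-κB pathway moved both ways, with 13 higher (54.2%) and 8 lower (33.3%) of 24, beside 37.8% and 38.3% of all genes. Nfkbia, the inhibitor that NF-κB induces, was at 15.8, 16.3 and 17.5 CPM in the DMSO libraries and 34.1, 32.2 and 33.6 CPM in the YJ1206 libraries (log2 fold change 1.01, SE 0.074), but Tnfaip3, another induced inhibitor, was at 50.4, 54 and 51.7 CPM in the DMSO libraries and 27, 27 and 28.6 CPM in the YJ1206 libraries (-0.92, SE 0.059). Rela fell slightly, from 95.7 ± 1.73 to 84.7 ± 1.18 CPM. The groups lay apart for all 3 genes, and the list's median of 0.17 turned to -0.01 with total counts alone, where 8 rose and 8 fell. Taken relative to all genes, that median was 0.19 with both scalings.

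Mouse Myc was at 667, 709 and 689.8 CPM in the DMSO libraries and 1872, 1953 and 1998 CPM in the YJ1206 libraries, a log2 fold change of 1.5 (SE 0.026, adjusted p = 3.23e-26, edgeR), and reads of the human transgene were not separated from it. Its partner Max rose from 67.8 ± 0.471 to 147 ± 3.35 CPM, and Mxd4 and Mxi1, which compete with MYC for MAX, from 8.21 ± 0.588 to 34 ± 2.96 CPM and from 40.6 ± 1.94 to 86.6 ± 3.57 CPM. Of the 17 members of this network tested, 9 rose and 6 fell, and the median of 0.15 turned to -0.04 with total counts alone, where 8 rose and 7 fell. Taken relative to all genes, that median was 0.16 with both scalings and 0.35 with log2(TPM + 1). Of the prostate luminal genes, 10 rose and 8 fell of 20 with TMM, but 8 and 10 with total counts alone and 7 and 11 with log2(TPM + 1), and the median of 0.12 turned to -0.06 and -0.17. Grhl2 and Ehf, epithelial transcription factors, fell from 51.2 ± 1.76 to 17.9 ± 1.1 CPM and from 32.2 ± 0.622 to 15.3 ± 0.976 CPM, whereas Elf3, another of these, rose from 5.55 ± 0.657 to 12.4 ± 1.88 CPM. Receptor tyrosine kinases and growth factor ligands fell more often than they rose, 13 (50%) against 4 (15.4%) of 26, beside 38.3% and 37.8% of all genes. Egfr was at 21.9, 21.7 and 21.2 CPM in the DMSO libraries and 7.01, 6.34 and 6.08 CPM in the YJ1206 libraries and Axl at 448, 450.2 and 451 CPM in the DMSO libraries and 185, 182 and 186 CPM in the YJ1206 libraries (log2 fold changes -1.73 and -1.29). Every YJ1206 library was below every DMSO library for both receptors. Met, the receptor for hepatocyte growth factor, fell from 528 ± 6.01 to 405 ± 22.8 CPM.

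The machinery of protein synthesis and turnover was higher with TMM, and its extent depended on the scaling. The shares of all genes were 37.8% higher and 38.3% lower with TMM. Of 79 cytosolic ribosomal protein genes 70 rose and 5 fell, with a median log2 fold change of 0.39; with log2(TPM + 1) 35 rose and 27 fell. Their share of all counts was 4.06% to 4.13% in DMSO libraries and 4.73% to 4.95% in YJ1206 libraries. Rpl13a was at 718, 713 and 714 CPM in the DMSO libraries and 1469, 1441 and 1526 CPM in the YJ1206 libraries and Rpl5 at 88.2, 90 and 82.2 CPM in the DMSO libraries and 193, 206 and 204 CPM in the YJ1206 libraries (log2 fold changes 1.05 and 1.21), while Rps19 fell from 276 ± 9.53 to 226 ± 3.91 CPM. Ribosome biogenesis genes rose in 46 of 67 and fell in 12, and with log2(TPM + 1) in 32 and 24. Nop56, of the box C/D particles that guide ribosomal RNA methylation, was at 392, 396 and 386 CPM in the DMSO libraries and 965, 974 and 1023 CPM in the YJ1206 libraries, and Fbl, its methyltransferase, at 214, 222 and 223 CPM in the DMSO libraries and 415, 416 and 421 CPM in the YJ1206 libraries (log2 fold changes 1.33 and 0.92). Ncl, nucleolin, was at 2973 ± 11 CPM with DMSO and 2988 ± 24.3 with YJ1206 and did not pass the test (adjusted p = 0.721, edgeR). Translation factors rose in 38 of 54 and fell in 5 with TMM, but in 23 and 22 with log2(TPM + 1). Among them Eif4a1, the helicase of the cap-binding complex, rose from 886 ± 6.8 to 1692 ± 29.1 CPM. Of 34 proteasome subunits 27 rose and 2 fell, with a median of 0.50, and 21 rose and 8 fell with log2(TPM + 1). Psmd7, of the regulatory particle, was at 243, 241 and 237 CPM in the DMSO libraries and 483, 494 and 495 CPM in the YJ1206 libraries (log2 fold change 1.03, SE 0.027).

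All 13 protein-coding transcripts of the mitochondrial genome rose, with a median log2 fold change of 0.82, and did so under total counts and log2(TPM + 1) too. They took 3.35% to 3.46% of counts in DMSO libraries and 5.04% to 5.19% in YJ1206 libraries. mt-Co1, a catalytic subunit of cytochrome oxidase, was at 7899, 7735 and 7628 CPM in the DMSO libraries and 13690.3, 13522 and 13936 CPM in the YJ1206 libraries, and mt-Nd3, of complex I, at 204, 153 and 166 CPM in the DMSO libraries and 409, 411 and 436 CPM in the YJ1206 libraries (log2 fold changes 0.82 and 1.26). Nuclear-encoded subunits of the same complexes rose in 48 and fell in 17 of 78 with a median of 0.27, which turned to -0.09 with log2(TPM + 1), where 19 rose and 39 fell. Among all genes 37.8% rose and 38.3% fell with TMM. Cycs, cytochrome c, rose from 151 ± 7.39 to 264 ± 8.42 CPM, and Sdhb, of succinate dehydrogenase, fell from 122 ± 3.54 to 70.2 ± 2.29 CPM. Mitochondrial ribosomal proteins were less one-sided, with 35 higher and 20 lower of 78 and a median of 0.11 with TMM, but 25 higher, 32 lower and a median of -0.08 with total counts alone; Mrps6 rose from 29.6 ± 1.64 to 96.2 ± 3.02 CPM and Mrpl24 fell from 53.9 ± 0.227 to 21.7 ± 2.52 CPM.

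In metabolism, hypoxia and glycolysis genes rose in 23 and fell in 8 of 35, with a median of 0.34 that was -0.01 with log2(TPM + 1), where 16 rose and 12 fell. The lists here are to be read beside 37.8% of all genes higher and 38.3% lower with TMM. Aldoc, a glycolytic aldolase, was at 1.64, 1.24 and 1.86 CPM in the DMSO libraries and 12.6, 11.2 and 11.2 CPM in the YJ1206 libraries and Pfkfb4, a regulator of glycolytic flux, at 4.77, 3.77 and 4.64 CPM in the DMSO libraries and 20, 16.2 and 16.8 CPM in the YJ1206 libraries, whereas Epas1, which encodes HIF-2α, fell from 10.5 ± 0.0497 to 2.98 ± 0.749 CPM. Cholesterol and fatty acid synthesis genes gave 22 higher and 15 lower of 40 with TMM, but 17 and 18 with total counts alone and 9 and 20 with log2(TPM + 1), and the median of 0.16 turned to -0.03 and -0.16. Hmgcs1, an enzyme early in cholesterol synthesis, was at 65.4, 63.2 and 61.4 CPM in the DMSO libraries and 157, 153 and 166 CPM in the YJ1206 libraries (log2 fold change 1.33, SE 0.042). Genes that build GPI anchors and N-glycan precursors fell in 28 and rose in 5 of 45, with a median of -0.34 and with 34 lower and 3 higher under total counts. Taken relative to all genes, that median was -0.33 with both scalings. Pigm and Pigg, of the GPI pathway, fell from 27.8 ± 1.92 to 8.08 ± 1.09 CPM and from 25.7 ± 1.56 to 7.81 ± 0.752 CPM, and Dpagt1, the first enzyme of N-glycan precursor synthesis, from 35 ± 1.44 to 19.1 ± 1.17 CPM.

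**Figure D3:**
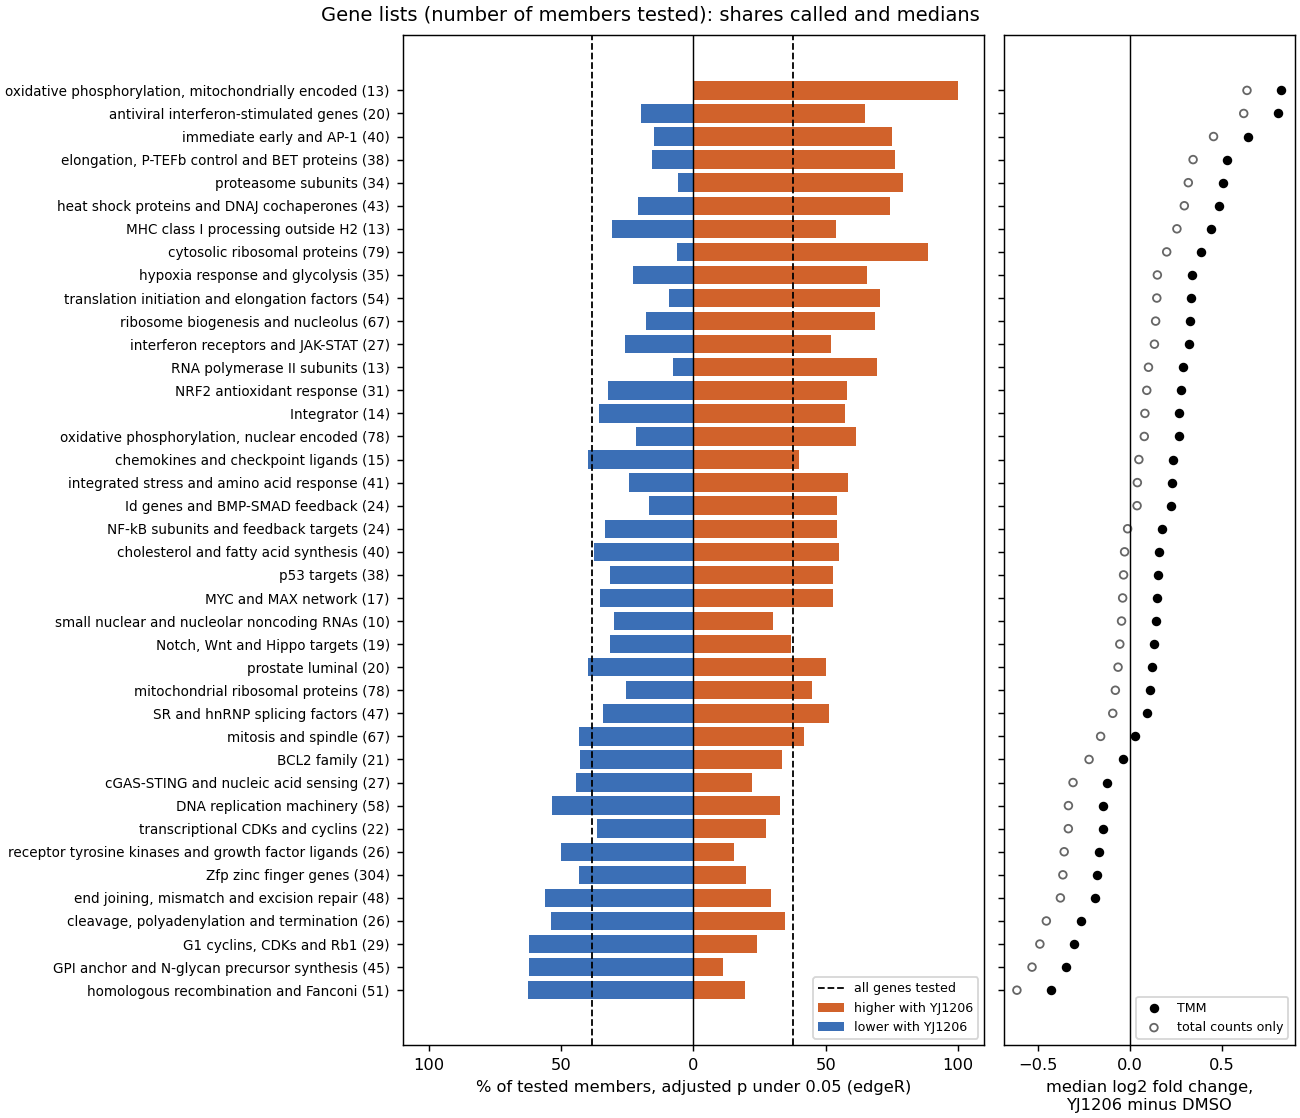
The 40 gene lists with at least 10 tested members, ordered by median: bars give the percent of tested members that rose (orange) or fell (blue) at an adjusted p under 0.05 (edgeR), dashed lines the same for all genes tested, and points the median log2 fold change with TMM (filled) and with total counts alone (open). Mitochondrially encoded transcripts stand highest at a median of 0.82 and homologous recombination genes lowest at -0.43, and the open points lie to the left of the filled ones throughout.

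Zinc finger genes with a Zfp symbol, many of which encode repressors, fell more often than they rose. Of the 404 listed, 304 were tested, of which 132 fell (43.4%) and 60 rose (19.7%), beside 38.3% and 37.8% of all genes. The median log2 fold change was -0.18. Under total counts 163 fell and 41 rose, and the median relative to all genes was -0.16 with both scalings. Zfp57, known for guarding imprinted methylation, was at 21.8, 19 and 18.9 CPM in the DMSO libraries and 5.87, 5.58 and 5.54 CPM in the YJ1206 libraries (log2 fold change -1.81, SE 0.11), and Zfp296 rose from 3.88 ± 0.713 to 16.4 ± 2.53 CPM. Genes annotated as lincRNA by GENCODE vM21 had a median of -0.50, with 188 lower and 55 higher of 453 tested, against a median of -0.0053 for 11040 protein-coding genes. Relative to all genes the median of the lincRNA genes was -0.48 with total counts and -0.14 with log2(TPM + 1). Their share of counts was 0.97% to 1.04% in DMSO libraries and 0.63% to 0.73% in YJ1206 libraries. Neat1, the scaffold of nuclear paraspeckles, was at 622, 577 and 615 CPM in the DMSO libraries and 158, 139.8 and 145 CPM in the YJ1206 libraries (log2 fold change -2.03, SE 0.037), and Gm48275 at 1237, 1275 and 1269 CPM in the DMSO libraries and 215, 237 and 242 CPM in the YJ1206 libraries (-2.45, SE 0.032). Rmrp, the RNA of a nuclear and mitochondrial ribonuclease, rose from 2.95 ± 0.309 to 10.8 ± 3.39 CPM.

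Fold change followed transcript length. The count of a gene divided by its TPM is proportional to the mean effective length of its transcripts, weighted by abundance, and was set to kb with 654 genes that have 1 annotated transcript of at least 1 kb. In the shortest decile of 11037 protein-coding genes, under 0.945 kb, the median log2 fold change was 0.19, and 48.7% rose and 25.1% fell. In the longest decile, over 6.10 kb, it was -0.20, and 26.3% rose and 51.7% fell. The deciles between ran from 0.077 to -0.087. The difference of shortest and longest was 0.39 with TMM and with total counts, 0.15 with log2(TPM + 1) and 0.27 with log2(TPM + 0.1). What lowers it on the TPM scales was not tested. By genomic span, a length that includes introns, genes under 5 kb had a median of 0.098, with 40.3% higher and 30.3% lower, those between 5 and 200 kb had medians from -0.0064 to -0.053, and the 424 genes over 200 kb had a median of -0.19, with 23.6% higher and 47.6% lower. Ahnak, a giant scaffold protein, was abundant and took 0.883% to 0.897% of counts with DMSO and 0.353% to 0.387% with YJ1206; its name and values were chosen after they were seen. The higher share of short mitochondrial transcripts moved with these trends, and the part of RNA quality in them was not tested.

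**Figure D4:**
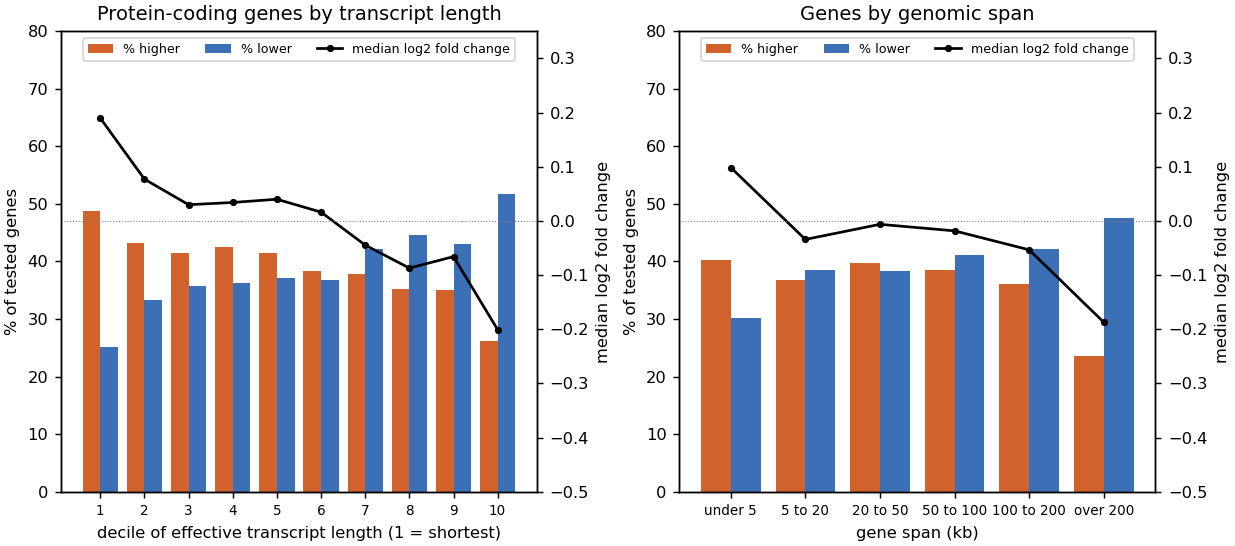
Percent of tested genes that rose (orange) or fell (blue), left axes, and median log2 fold change (black line, right axes) by decile of effective transcript length for protein-coding genes (left) and by genomic span (right). The line falls from 0.19 in the shortest decile to -0.20 in the longest, and on the right from 0.098 under 5 kb to -0.19 over 200 kb.

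The mean transcript length of a gene can itself change when the mix of its isoforms does, as the authors' quantification assigns reads to them. This was compared over 9882 genes with a mean count of at least 50, after centring each library on its median gene, with limma; a gene was called at an adjusted p under 0.05 and a change of at least 0.1 on the log2 scale. Of these genes 5.04% became shorter and 3.52% longer. Large changes were mostly shortenings, with 98 genes at least 0.5 shorter and 20 at least 0.5 longer. Among the 819 genes with 1 annotated transcript, where no mix of isoforms can shift the length, the median change was 0.021 and 1 was called. The shortened genes had a median effective length of 4.58 kb with DMSO and a median span of 66.9 kb, against 2.64 kb and 23.2 kb for genes not called, and the lengthened genes had 1.85 kb and 16.4 kb. The length with DMSO also enters the call, so part of its difference follows from how the genes were chosen. In expression, 51.0% of the shortened genes fell and 32.9% rose, against 39.8% and 41.5% of those not called. This expression is a change of counts, which fall as transcripts shorten at an unchanged TPM. How much of the difference follows from the shortening itself was not tested.

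Dcp2, the decapping enzyme of mRNA decay, had a mean effective length of 4.54, 6.22 and 5.06 kb with DMSO and 1.57, 1.63 and 1.52 kb with YJ1206, a log2 change of -1.73 (SE 0.13, adjusted p = 0.00494, limma). Chd6, a chromatin remodeler, was at 10.6, 10.8 and 8.68 kb with DMSO and 3.22, 3.06 and 3.66 kb with YJ1206 (log2 change -1.59, SE 0.12). The 3 YJ1206 libraries of both were well below the DMSO libraries. Tanc2, a scaffold protein, was at 8.36, 8.12 and 7.77 kb with DMSO and 3.53, 3.09 and 2.93 kb with YJ1206, and Mical3, an actin-binding oxidoreductase, at 7.81, 7.43 and 7.04 kb with DMSO and 3.28, 2.99 and 2.87 kb with YJ1206 (log2 changes -1.35 and -1.29). The shortened genes did not share a direction of change in counts, and these changes also carry the change of length. Counts of Chd6 rose by 0.35 and those of Mical3 by 0.61 on the log2 scale. Those of Tenm4 fell by 1.83, and its length fell by 1.14. In the other direction Neat1 was at 3.95, 3.96 and 4.03 kb with DMSO and 6.14, 5.88 and 5.64 kb with YJ1206 (log2 change 0.56, SE 0.034), so its level fell as its mean length rose. B4galt3, a galactosyltransferase, was at 1.08, 1.15 and 1.11 kb with DMSO and 1.68, 1.71 and 1.67 kb with YJ1206 (log2 change 0.6, SE 0.027), and Cdk5rap2, a centrosome protein, at 6.55, 5.98 and 6.05 kb with DMSO and 9.1, 8.83 and 8.54 kb with YJ1206 (0.51, SE 0.045). Mrpl17 had the largest lengthening of those named, at 0.618, 0.591 and 0.56 kb with DMSO and 1.56, 0.86 and 1.15 kb with YJ1206, with its YJ1206 libraries spread widely, and its call was lost when any library other than YJ1206 replicate 2 was left out (log2 changes of 0.75 to 1.0, against 0.97 with all 6). That of Tenm4 was lost without YJ1206 replicate 3 (log2 change -1.17). These lengths rest on estimates of isoform shares, and the number of calls depended on single libraries. It was lowest without YJ1206 replicate 3 for shorter genes (222 against 498 with all 6 libraries) and without YJ1206 replicate 1 for longer genes (100 against 348).

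**Figure D5:**
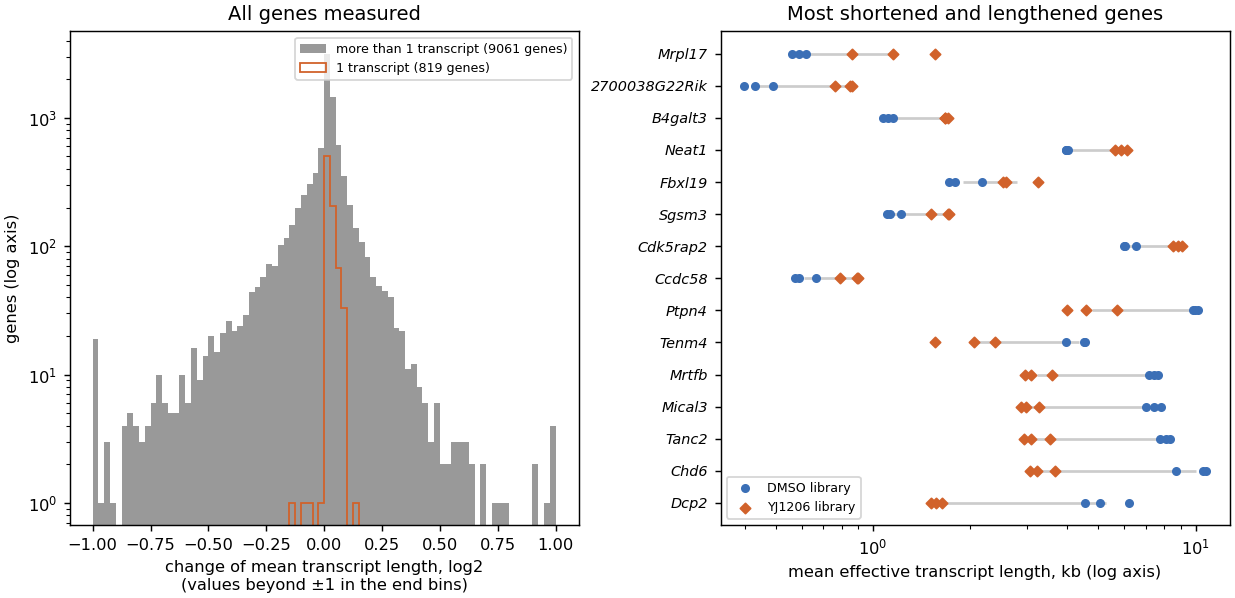
Change of the mean effective transcript length. Left, the number of genes (log axis) by log2 change for genes with more than 1 annotated transcript (grey) and with 1 (orange); right, the length in kb (log axis) in each DMSO (circle) and YJ1206 (diamond) library for 7 of the 8 most shortened and for the 8 most lengthened genes named by rule. The grey distribution reaches further to the left than to the right and the orange one stays near 0; Dcp2, at the bottom right, shows the largest shortening.

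A last view is the most abundant transcripts, compared per length in TPM. Gm48275, a short noncoding gene, was at 25407 ± 299 TPM with DMSO and 3682 ± 233 TPM with YJ1206, the highest mean of the DMSO group. mt-Atp8, a subunit of the mitochondrial ATP synthase, was at 12055 ± 387 TPM with DMSO and 22417 ± 331 TPM with YJ1206, the highest mean of the YJ1206 group. Eef1a1, the elongation factor that brings tRNA to the ribosome, was at 9612 ± 107 TPM with DMSO and 7354 ± 64.7 TPM with YJ1206, and Ftl1 at 3398 ± 51 TPM with DMSO and 7238 ± 261 TPM with YJ1206. Ptma, prothymosin alpha, was at 4773 ± 92.6 TPM with DMSO and 7610.1 ± 97.2 TPM with YJ1206, and Rpl41, of the ribosome, at 5612 ± 155 TPM with DMSO and 8415 ± 316 TPM with YJ1206. Gm20594, with 11783 ± 399.5 TPM with DMSO and 14937 ± 3454 TPM with YJ1206, is a short predicted gene, and whether its reads also match other copies was not checked.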

How the data were processed

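RNA was sequenced from 3 samples of Myc-CaP cells given DMSO and 3 given YJ1206 (RNeasy extraction, KAPA RNA Hyper+RiboErase libraries, paired-end NovaSeq reads). The authors deposited an estimated count for every gene and library, not always a whole number, with no scaling between libraries; the submitters' processing notes name kallisto with GRCm38 and mm10, and its version is not given in the sources used here. The authors also deposited TPM per gene, scaled within each library for transcript length and total. Groups came from the labels. Counts were rounded to whole numbers and fitted with edgeR 4.0.16 (R 4.3.3; filterByExpr, TMM, quasi-likelihood F test, Benjamini-Hochberg, threshold 0.05), DMSO and YJ1206 without a block, after testing the steps on simulated data. The design had been written for counts, and rounding was the change the estimated counts needed. Libraries of a group differed by more than sampling noise (chi-square per gene 1.91 to 2.82) and were kept apart. Correlations of deviations between same-numbered libraries were -0.0284 to -0.0184, so the numbers do not pair them.

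Mean effective transcript length is the estimated count over TPM, on a log2 scale, tested with limma 3.58.1 with a trend on the mean count. Spans, biotypes and transcript numbers came from GENCODE vM21 (GRCm38), which holds 11822 of the 11826 tested identifiers. Named genes are the 15 largest increases and decreases past the threshold with a mean CPM of at least 5 and no overlap of groups, fixed key genes, up to 3 rising and 3 falling members of each list, the 8 most lengthened and shortened genes of at least 20 CPM, and the 15 highest in TPM; some genes that this rule names are not reported here. Members, lists and the rule were chosen with earlier results of these data known, so no list carries a test of its own, and Ahnak and Ell3 were named after their values were seen. Alternatives were RLE factors, total counts alone, no filter, DESeq2 1.42.0, limma on log2(TPM + 1) and log2(TPM + 0.1), a replicate block, and leaving out each library.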

Additional observations from a re-analysis of the deposited data

How the results depend on the processing

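The count of higher genes was 4467, and it was 2534 with log2(TPM + 1) and 2533 with log2(TPM + 0.1); every other alternative left the counts of higher and of lower genes within 1.5 times of 4467 and 4528. Both TPM settings change the scale and also the test, from edgeR to limma, and the cause was not tested. Longer and shorter transcripts were less stable. Against 348 longer and 498 shorter genes, a replicate block gave 72 and 152, and leaving out each library gave 100 to 298 and 222 to 388. Longer genes came to 203 without DMSO replicate 2, 100 without YJ1206 replicate 1, 202 without YJ1206 replicate 2 and 118 without YJ1206 replicate 3. Shorter genes came to 304 without DMSO replicate 1, 304 without DMSO replicate 2, 227 without YJ1206 replicate 1 and 222 without YJ1206 replicate 3; the cause was not tested. The length call of Mrpl17 was lost under the block and in 5 of the 6 fits without a library, that of Tenm4 under the block and without YJ1206 replicate 3, and that of Chd6 under the block. The samples share only a number, and in edgeR the block gave 4425 higher and 4480 lower genes.

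Of the 177 genes whose fold change was followed over the alternatives, 5 turned direction in a setting, and of these Foxa1 alone passed the main test. With total counts alone Cdk13 was at -0.16, Ncl at -0.18 and Sting1 at -0.061; with log2(TPM + 1) they were at -0.28, -0.24 and -0.73, and Foxa1 at -0.078; with log2(TPM + 0.1) at -0.29, -0.24 and -1.22, and Foxa1 at -0.079. Ncl was at -0.0075 without the filter. With each library left out in turn, Cdk13 ran from -0.0041 to 0.039, Mdm2 from -0.060 to 0.0089 and Sting1 from -0.045 to 0.27. Of the medians of the 40 lists with at least 10 tested members, taken relative to all genes, that of chemokines and checkpoint ligands turned, and ran from -0.17 (without YJ1206 replicate 1) to 0.39. Calls of Bst2, Cgas, Larp7, Rtf1 and Gm20594 were lost on both TPM scales, and that of Foxa1 with total counts. Genes under about 3 counts a library could not be compared at this depth.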

Other observations

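Chemokines and checkpoint ligands were mostly too low to test, with 15 of 37 genes in the table passing the filter, 6 higher and 6 lower with TMM, 5 and 7 with total counts alone and 3 and 7 with log2(TPM + 1), where the median of 0.23 turned to -0.08. Among all genes 37.8% rose and 38.3% fell with TMM. Cxcl5, which attracts neutrophils, was at 22.9, 23 and 23.7 CPM in the DMSO libraries and 49, 47.3 and 51.5 CPM in the YJ1206 libraries (log2 fold change 1.09, SE 0.062), and Lgals9, a galectin that binds TIM-3, rose from 46.5 ± 0.629 to 70.8 ± 2.06 CPM. Cxcl15, a lung chemokine, fell from 13.5 ± 1.05 to 3.82 ± 0.524 CPM, and Nt5e, which makes adenosine from AMP, from 16.8 ± 1.17 to 8.28 ± 0.783 CPM. Cd274, which encodes PD-L1, was at 0.887 ± 0.237 CPM with DMSO and 1.5 ± 0.408 with YJ1206 and did not pass the test (adjusted p = 0.0534, edgeR).

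Of 19 tested targets of Notch, Wnt and Hippo signaling 7 rose and 6 fell with TMM, but 6 and 8 did with total counts alone and 5 and 8 with log2(TPM + 1), and the median of 0.13 turned to -0.05 and -0.18. The shares of all genes were 37.8% higher and 38.3% lower with TMM. Wnt7b, a WNT ligand, was at 100.4, 107 and 104 CPM in the DMSO libraries and 42.2, 47.9 and 49.3 CPM in the YJ1206 libraries (log2 fold change -1.16, SE 0.05), and Lats2, a kinase of the Hippo pathway, rose from 36.5 ± 2.55 to 63.9 ± 1.12 CPM. Only 2 of the 9 replication-dependent histone genes in the table passed the filter, of which 1 rose, and 10 of 14 small noncoding RNA hosts and RNAs, of which 3 rose and 3 fell, with a median of 0.14 that turned to -0.04 with total counts alone, where 1 rose and 4 fell. Snhg12, a host of small nucleolar RNAs, was among the latter (41.1 ± 2.5 to 29.1 ± 1.29 CPM).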
